A study of Aspergillus niger with 11 samples.

Results

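The transcripts described here are 66 loci of Aspergillus niger strain DS03043 whose level dipped between 18 and 24 h of an oxygen-limited fed-batch culture and came back by 42 h. They were picked by their own values: the highest mean of a sampling time had to reach 100 FPKM (fragments scaled to transcript length and to the mapped total of the library), and 10 FPKM was added to each mean before ratios were formed. The 24 h mean over the 18 h mean had to be at most 0.5, the 42 h mean over the 24 h mean at least 1.75, and the 42 h mean over the 18 h mean above 0.5. Of 10445 genes, 1844 reached 100 FPKM at a sampling time, and the 66 loci were 3.58% of these. The locus An04g06940 also met the thresholds and is left out by the rule. Because the 18, 24 and 42 h values chose the loci, their fall and return are given as a description, with no test, and only 66 h was compared by a test. The 66 h values also took part in the choice, through the level: 8 loci reached 100 FPKM at 66 h only, 7 at 18 h only and 5 at 42 h only, so a high level at that time was a condition of their entry.

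RNA was sequenced from 3 libraries of the exponential phase (18 h), 3 of the transitional or early oxygen-limited phase (24 h), 3 of the middle limited phase (42 h) and 2 of the late limited phase (66 h). All came from strain DS03043 in a stirred, aerated fed-batch fermenter, and all carry the treatment label of an oxygen-limited fermentation. The labels give the 4 times for the series as a whole, so each phase was given its time by chronological order. No culture kept free of oxygen limitation at the later times was among the libraries, so time in culture, growth phase and oxygen supply cannot be told apart. The labels do not say whether replicates are separate cultures, and a p-value here reflects no more than library-to-library spread, which may be technical.

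Aspergillus niger is a filamentous fungus used to make citric acid and secreted enzymes. It grows by respiration, and in dense mycelial broths oxygen transfer often becomes the limit on growth. A transcript's level reflects its synthesis and its decay, and FPKM gives it only as a share of all transcripts of the library. In a broth sample, fewer hyphae of a kind and less of a transcript per hypha cannot be told apart. All 66 loci were found in the reference gene table, and 0 of them carry a symbol there. They are therefore named by locus, and no function is given for them.

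Most of the loci rested on few reads. The FPKM of 1 read could be worked out from the low values for 53 of them. Their reads summed over the 3 libraries of 18 h were 1 to 101 with a median of 20, those of 24 h 0 to 23 with a median of 7, and those of 42 h 1 to 88 with a median of 21. The 2 libraries of 66 h held 0 to 121, with a median of 17. At 24 h 37 of the 53 loci had fewer than 10 reads in all. The reads of An02g02760 and An16g03660 came out as multiples of 3 in every library, and those of An12g09570 as multiples of 2. Their step may be too small and their reads too high, so the medians may be too high and the 37 too low. Replicates 2 and 3 of 24 h were also the shallowest libraries. Relative to replicate 3 of 24 h, the depth was 1.21, 1.13 and 1.08 at 18 h, 1.11, 1.02 and 1.00 at 24 h, 1.38, 1.43 and 1.39 at 42 h, and 1.59 and 1.51 at 66 h. FPKM is scaled for depth, but a locus is more easily listed at 0 in a shallow library.

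Together the 66 loci made up 2.09%, 2.02% and 1.64% of the FPKM sum of the 18 h libraries and 0.851%, 0.427% and 0.466% of that of the 24 h libraries. The shares were 1.84%, 2.12% and 1.90% at 42 h and 2.37% and 2.005% at 66 h. Of the 66 h libraries, which took part in the level and not in the ratios of the rule, replicate 1 stood above the 18 h range and replicate 2 within it. Within 24 h, replicate 1 stood apart from the other two, at 9129 summed FPKM against 4706 in replicate 2 and 5061 in replicate 3.

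**Figure D1:**
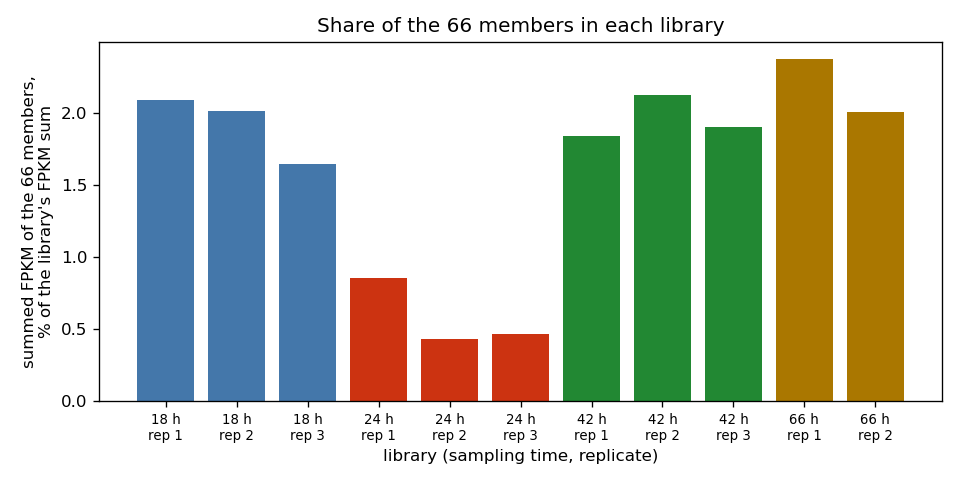
Summed FPKM of the 66 loci as a percentage of the FPKM sum of each library, 1 bar per library, coloured by sampling time. The 24 h libraries lie between 0.427% and 0.851%, and all other libraries between 1.64% and 2.37%.

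The higher level of 24 h replicate 1 was concentrated in the abundant loci. Among the 18 loci whose highest group mean was 300 FPKM or more, replicate 1 was the highest of the 24 h libraries in 16 (88.9%), against 309 of all 809 genes at that level (38.2%). Its level over the mean of the other 24 h libraries, with 10 FPKM added to both, had a median of 2.21 in these 18 loci, against 1.00 over the 809 genes. Among the 48 loci under 300 FPKM the median was 1.00, and replicate 1 was the highest in 15. The part of this library in the results was not tested beyond leaving it out. Without 24 h replicate 1, 109 genes met the rule, 57 of them among the 66.

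Of the 8 most abundant loci, An09g05010 had the highest level. It stood at 2312, 2220.15 and 1722 FPKM at 18 h, at 1668, 619 and 698 at 24 h, at 3284, 3605 and 3304 at 42 h, and at 4432 and 3578 at 66 h. Its 24 h replicate 1 lay just below the lowest 18 h library, while the other two were far lower, and the 42 and 66 h libraries all exceeded those of 18 h. An11g10840 had 2798, 2955 and 1733 FPKM at 18 h, 1234, 357 and 579 at 24 h, 1724, 1791 and 1783 at 42 h, and 2835 and 1725 at 66 h. Its 24 h libraries lay below all others, and its 42 h libraries were close to each other and to the lowest of 18 h. An11g04790 had 1391, 1507 and 919.9 FPKM at 18 h, 697, 42.1 and 173 at 24 h, 722, 1189 and 813 at 42 h, and 1928 and 1434 at 66 h. The 24 h values of this locus correspond to 18, 1 and 4 reads.

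An11g10890 stood at 1320, 1141 and 1275 FPKM at 18 h, 516, 170.1 and 209 at 24 h, 943, 1108 and 967 at 42 h, and 995 and 751 at 66 h. It kept below its 18 h range at every later time. An02g05790 had 1238, 1562 and 971 FPKM at 18 h, 381, 304 and 255 at 24 h, 615, 637 and 778 at 42 h, and 979 and 564 at 66 h. An14g01685 had 932, 834 and 757 FPKM at 18 h, 384, 266 and 272 at 24 h, 537, 604 and 619.7 at 42 h, and 465 and 594 at 66 h. Both came back in part, with 42 h libraries above all of 24 h and below all of 18 h. An18g00600 had 851, 590.1 and 764 FPKM at 18 h, 185, 121 and 165 at 24 h, 269.7, 466 and 358 at 42 h, and 415 and 301 at 66 h. Of the 8 it kept the smallest share of its 18 h level at 42 h, a mean of 365 ± 98.2 against 735 ± 133 FPKM (SD, n = 3 each).

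An04g06550, like An09g05010, was higher in all 42 and 66 h libraries than in any of 18 h. It had 643, 795 and 584 FPKM at 18 h, 366, 325 and 297 at 24 h, 1292, 1019 and 805 at 42 h, and 1446 and 1453 at 66 h. Its 24 h libraries were close to each other, replicate 1 included, and both 66 h libraries lay above every other library of the locus.

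**Figure D2:**
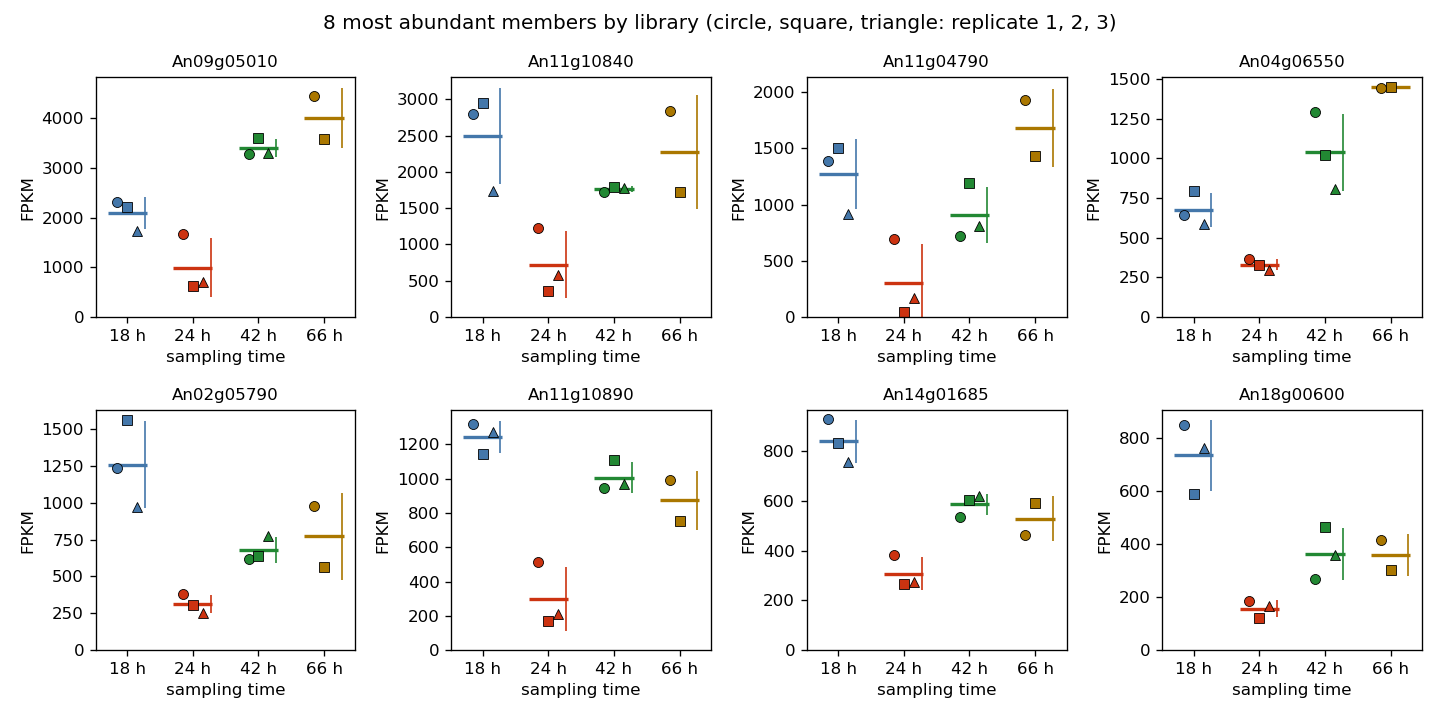
FPKM of the 8 most abundant loci (vertical axis, from 0) at the 4 sampling times, 1 point per library with the shape giving the replicate number. Horizontal lines are means and thin vertical lines the SD, cut at 0. All 24 h points lie below all points of 18 and 42 h, and 24 h replicate 1 is the highest 24 h point in each of the 8 loci.

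The pattern in single libraries was less uniform than in the means. In 38 of the 66 loci every 24 h library lay below every 18 h library, as in 14.1% of all genes at 100 FPKM or more. In 42 loci every 24 h library lay below every 42 h library, as in 20.7% of those genes. Both held in 29 loci (4.28% of the same genes), 13 of them among the 18 loci at 300 FPKM or more and 16 among the other 48. Since the rule used these contrasts, nothing is read from these counts. In 15 loci, all under 300 FPKM, the 24 h libraries overlapped those of 18 h as well as those of 42 h, so the name of a dip and return holds for their means and not for each library.

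**Figure D3:**
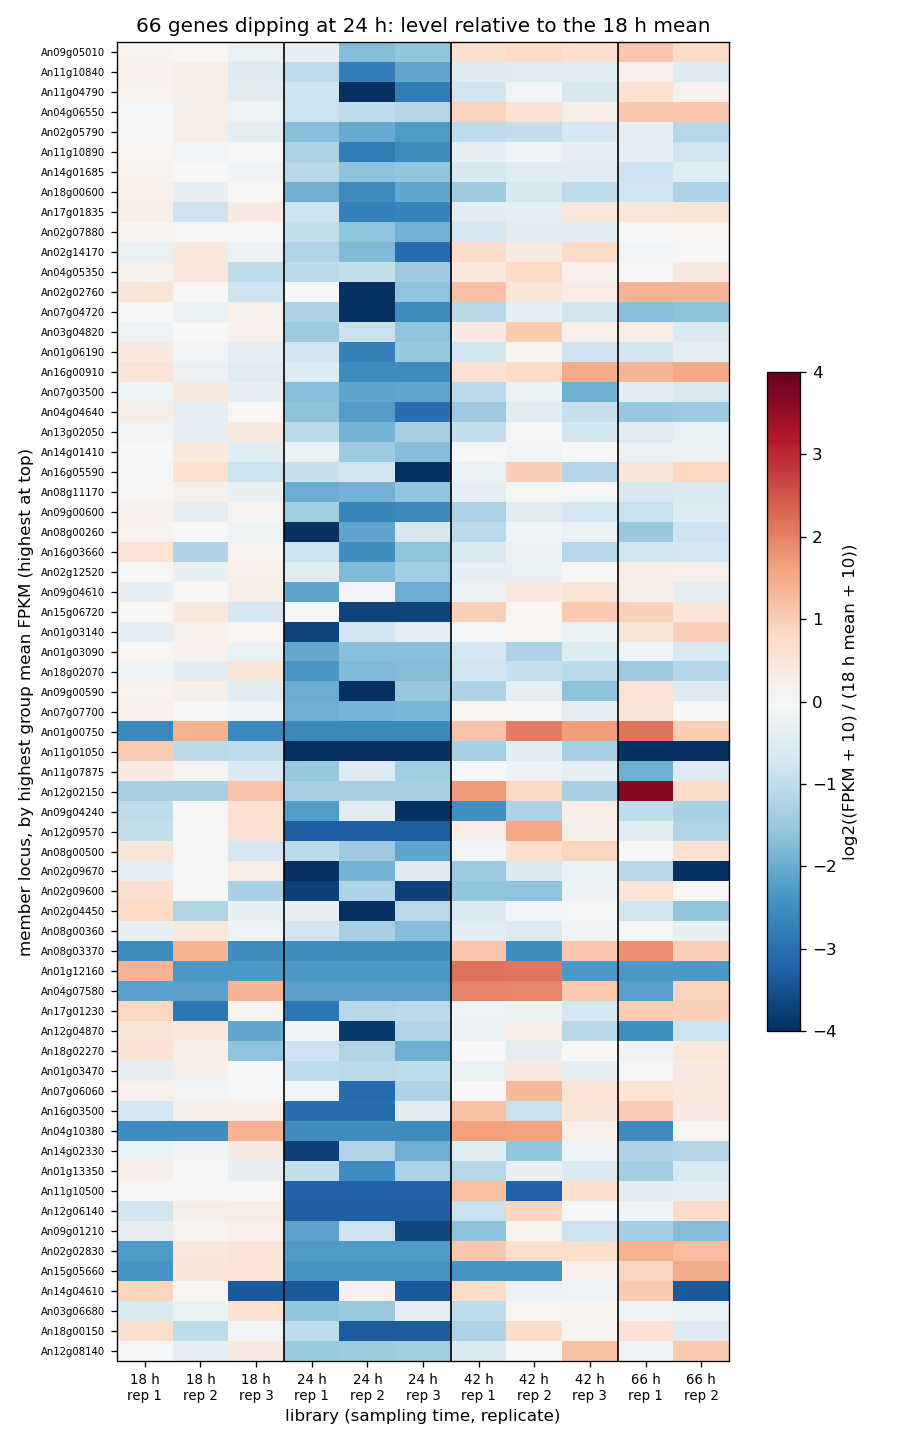
Level of the 66 loci (rows, most abundant at the top) in the 11 libraries (columns), as log2 of FPKM plus 10 over the 18 h mean plus 10. Blue is below and red above the 18 h mean, and the blue block at 24 h is lightest in replicate 1 among the abundant loci and patchy among the less abundant ones.

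At 24 h, 35 loci were above 0 in every library, 19 were listed at 0 in 1 or 2 libraries, and 12 were listed at 0 in all 3, so that no fold against 24 h is given for those 12. Among them, An12g09570 stood at 40.8, 88.5 and 137 FPKM at 18 h, at 0 throughout 24 h, at 107.8, 279 and 107.4 at 42 h, and at 62.1 and 32.8 at 66 h. Its recovered reads were multiples of 2 in every library, so they may be too high and are not given. An12g06140 had 48.1, 104.8 and 107.7 FPKM at 18 h, 0 at 24 h, 42.5, 165 and 84.5 at 42 h, and 73.3 and 155 at 66 h, from 5, 0, 7 and 6 reads. In both, every library of the other times was above 0.

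Few reads lay behind most of the other loci at 0 throughout 24 h. An11g10500 had 1 read in each 18 h library, 3, 0 and 2 at 42 h, and 1 in each of 66 h. An01g00750 had 2 reads at 18 h, all in replicate 2, then 9 at 42 h and 7 at 66 h. An08g03370 had 1, 2 and 3 reads at 18, 42 and 66 h, An04g10380 had 2, 7 and 1, and An04g07580 had 1, 5 and 1. An01g12160 was above 0 in 3 libraries only, at 117 FPKM in 18 h replicate 1 and at 209 and 205 in 42 h replicates 1 and 2. An12g02150 had 1, 3 and 11 reads at 18, 42 and 66 h. In An01g00750, An08g03370, An04g10380, An04g07580, An01g12160 and An12g02150 the 18 h level rests on 1 library, and a difference between 24 and 18 h was not detectable at this depth.

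Limits on 3 ratios and on the level bound the group. Just inside the limit on the fall lay An14g01410, with 24 h over 18 h at 0.497, and just outside it An01g13860 at 0.503. Just inside the limit on the return lay An01g13350, with 42 h over 24 h at 1.77. Just outside it was pkiA (An07g08990), the gene of pyruvate kinase, which makes pyruvate in the last step of glycolysis, at 1.74. An18g00600 (0.503) and An02g06650 (0.499) lay on either side of the limit on 42 h over 18 h, and An12g08140 (101 FPKM) and An07g02170 (97.6 FPKM) on either side of the level. None of the 4 limits falls in a gap between genes.

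pkiA had 1912, 2404 and 1446 FPKM at 18 h, 830.4, 694 and 805 at 24 h, 1442, 1426 and 1216 at 42 h, and 1364 and 1469 at 66 h, the same course as the loci chosen. gpdA (An16g01830), the gene of the glycolytic glyceraldehyde-3-phosphate dehydrogenase, did not share it, with means of 439.6 ± 27.1, 431 ± 124, 382 ± 20.9 and 408 ± 0.078 FPKM at 18, 24, 42 and 66 h (SD, n = 3, 3, 3 and 2). The other 4 glycolytic genes with a symbol, tpiA, hxk, GlkA and pfkA, had means under 70 FPKM at every time. Of the 6 genes, limma called 0 between 66 and 42 h, with 1 at an unadjusted p under 0.05, and 0 between 66 and 18 h, with 0 at an unadjusted p under 0.05.

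The rule was also applied without the libraries of 1 replicate number at 18, 24 and 42 h, and the genes so chosen were read in those libraries. Without replicate 1 the rule chose 113 genes, of which 13 (11.5%) met it in the replicate 1 libraries, against 74 of all 1898 genes at the level (3.90%). Without replicate 2 it chose 65 genes, of which 16 (24.6%) met it in replicate 2, against 9.07% of 1874 genes. Without replicate 3 it chose 80 genes, of which 22 (27.5%) met it in replicate 3, against 7.54% of 1897 genes. These are other gene sets than the 66 loci, of which 54, 34 and 48 were among the 113, 65 and 80 genes. The shares are a description over the 18, 24 and 42 h libraries that the rule uses, with no test. The genes at the level were not matched to the chosen genes for read number or spread. Genes with few reads can pass the limits in single libraries more often, so the shares cannot show whether the pattern recurs.

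The fall and the return were also read in the left-out libraries. The median ratio of 24 h to 18 h in the left-out libraries was 0.651, 0.609 and 0.563 for the genes chosen without replicates 1, 2 and 3, against 1.07, 1.08 and 1.03 over all genes at the level. The median ratio of 42 h to 24 h was 1.27, 1.47 and 1.77 for the chosen genes, against 0.943, 0.925 and 0.968 over all genes at the level, so that for replicates 1 and 2 it lay under the limit of 1.75. The library of 24 h was the lowest of the 3 left-out libraries for 64 of 113, 32 of 65 and 53 of 80 chosen genes, against 22.6%, 28.0% and 26.8% of the genes at the level. The same limits hold for these medians and counts. With genes not matched for read number or spread, they cannot show whether the fall or the return recurs. The ratios of the 66 loci themselves, with a median of 0.327 for 24 h over 18 h and 2.60 for 42 h over 24 h, were measured in the libraries that chose them.

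**Figure D4:**
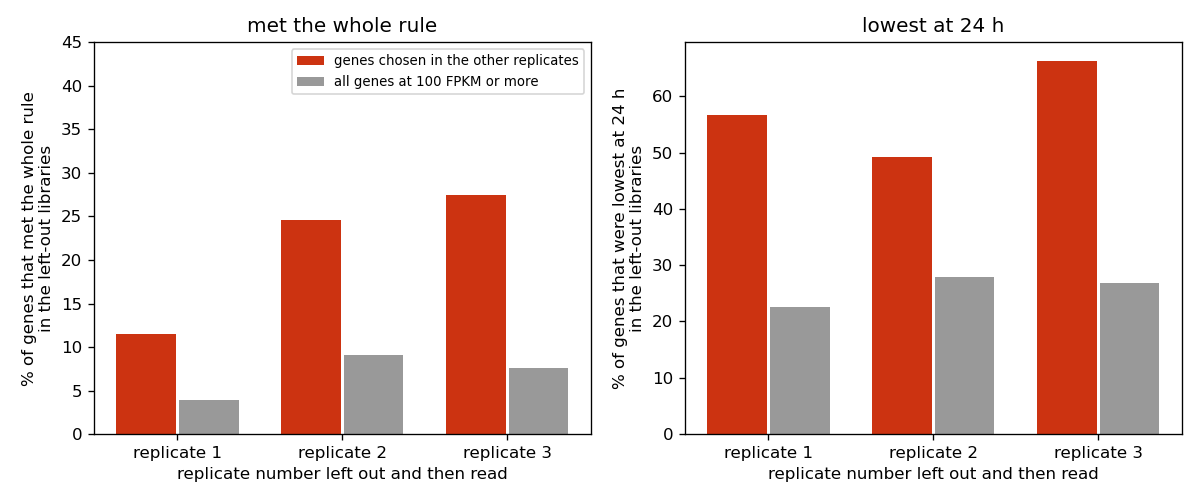
Share of genes that met the whole rule (left) or were lowest at 24 h (right) in the libraries of the replicate number left out of the choice, in percent. Red bars are the genes chosen in the other replicates, grey bars all genes at 100 FPKM or more, and the red bars are higher for each replicate number, from 11.5% against 3.90% to 27.5% against 7.54% for the whole rule. The 2 sets of genes are not matched for read number, so the bars cannot show whether the pattern recurs.

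Leaving out single libraries showed which loci depend on 1 sample. Of the 66 loci, 18 met the rule in each of the 11 omissions, and all 18 also did so in 5 other settings of the rule. The 9 abundant ones were An11g10840, An11g04790, An11g10890, An14g01685, An17g01835, An02g14170, An07g04720, An03g04820 and An16g00910. Another 9 lay under 300 FPKM, among them An08g11170, An09g00600 and An07g07700. Meeting the rule in each omission did not require many reads. Also among the 9, An02g02830 had 4, 0, 10 and 11 reads at 18, 24, 42 and 66 h. In the same order An16g03500 had 5, 1, 9 and 8 reads, and An14g02330 had 17, 3, 13 and 6. Of the 8 most abundant loci, An09g05010 met the rule in 8 of the 11 omissions, An04g06550 and An18g00600 in 9 and An02g05790 in 10. An03g06680 met the rule in the fewest omissions, 6 of 11.

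For 3 of these 18, chosen after their values were seen, the reads of each library are given. An07g07700 had 23, 19 and 16 reads at 18 h, 4 in each 24 h library, 25, 24 and 18 at 42 h, and 38 and 26 at 66 h, that is 157 ± 19.1, 35.7 ± 1.97 and 148 ± 24.5 FPKM at the first 3 times (SD, n = 3 each). An08g11170 had 20, 21 and 14 reads at 18 h, 4, 4 and 5 at 24 h, 17, 22 and 21 at 42 h, and 16 in each of 66 h. An02g14170 had 11, 16 and 10 reads at 18 h, 5, 3 and 1 at 24 h, 25, 20 and 26 at 42 h, and 16 in each of 66 h. In all 3 loci the 24 h libraries lay apart from those of the neighbouring times.

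An02g02760, which was not among the 18, shows the opposite case. It stood at 251, 182 and 93.9 FPKM at 18 h and at 182, 0 and 50.7 at 24 h. The values were 406, 251 and 221 FPKM at 42 h, and 479 and 472 at 66 h. Its dip rests on 24 h replicates 2 and 3, and it did not meet the rule when replicate 2 or replicate 3 of 24 h, or replicate 1 of 18 h, was left out.

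After the dip the means of the loci lay on both sides of the 18 h mean. By 42 h the mean had passed that of 18 h in 26 loci and stayed below it in 40. At 66 h it was above 18 h in 31 loci, and in 19 of the 31 it was above it at 42 h too. Of all genes at the level, 44.7% had a 66 h mean above that of 18 h, so nothing is read from the 31. The median of 42 h over 18 h, which the rule kept above 0.5, was 0.889, against 0.92 over the genes at the level. In 28 loci the mean was below that of 18 h at both 42 and 66 h. The median of 66 h over 18 h was 0.95, with a range of 0.0533 to 7.18, against a median of 0.877 over all genes at the level. The median of 66 h over 42 h was 0.985, against 0.983 over those genes. In all 8 loci that entered through 66 h only, the 66 h mean was above that of 18 h, as their entry required, and the ratio of 7.18 belongs to one of them, An12g02150. The other 58 loci had a median of 0.847 and a highest value of 3.24 for 66 h over 18 h, and a median of 0.919 for 66 h over 42 h. The ratio of An12g02150 rests on 1 read at 18 h and mainly on 1 library at 66 h, with 10 reads (308 FPKM) in replicate 1 and 1 read (32.5 FPKM) in replicate 2. The 66 h mean was above that of 24 h in 62 loci, as in 45.4% of genes at the level, but the low 24 h values were a condition of the choice. Both 66 h libraries lay above every 24 h library in 50 loci (28.2% of genes at the level) and below every one in 0 (34.7%), from which nothing is read for the same reason.

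**Figure D5:**
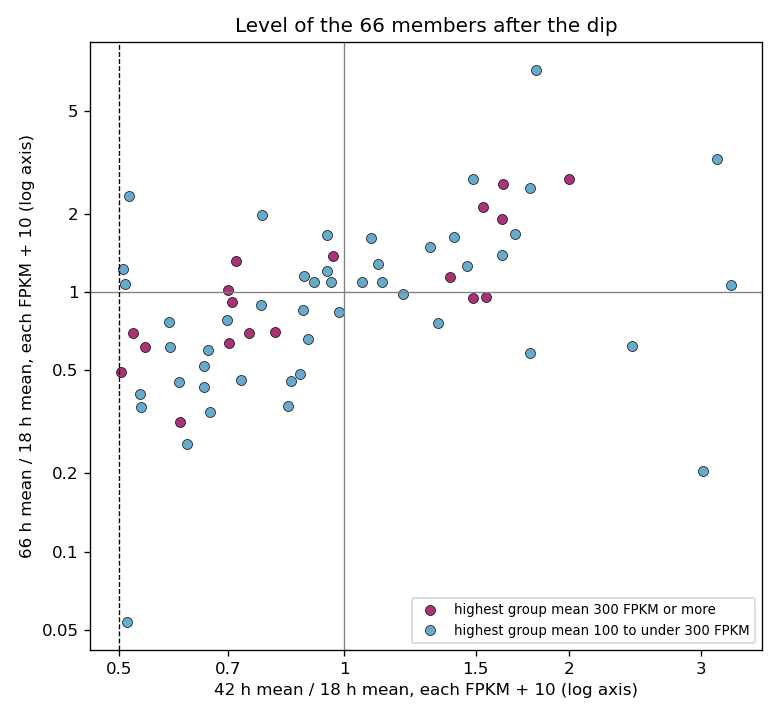
Mean at 66 h over the mean at 18 h (vertical, log axis) against mean at 42 h over the mean at 18 h (horizontal, log axis) for the 66 loci, each mean with 10 FPKM added. The dashed line is the limit of 0.5 set by the rule, and of the 18 abundant loci 5 lie above their 18 h level at both times, 8 below it at both and 5 above it at 1 time only, with 66 h ratios up to 2.72.

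Between the late and the middle limited phase limma called few genes, the loci included. A locus that was not called is not thereby unchanged. Both 66 h libraries lay above every 42 h library in 10 loci (15.2%, against 14.3% of the genes at 100 FPKM or more) and below every one in 11 (16.7%, against 16.5%). Of the 10, 3 had entered through 66 h only, and of the 11, 3 through 42 h only, so nothing is read from these counts. In a limma fit across all 8693 genes tested, 0.426% were called, 0.265% higher and 0.161% lower at 66 h, and among the 1844 genes at 100 FPKM or more 0.542% were called. Of the 66 loci, 1 was called lower and 0 higher, and at an unadjusted p under 0.05 limma gave 2 lower and 2 higher, 1 of the higher ones having entered through 66 h only. The median log2 fold change of the loci was 0.05, against 0.00 over all genes tested, and the median standard error of a locus was 0.72. The comparison shares the 42 h libraries with the rule.

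The locus called lower was An11g01050. It was listed at 0 in both 66 h libraries, against 65.5, 127.9 and 65.0 FPKM at 42 h and 369, 81.1 and 82.3 FPKM at 18 h, and at 0 in all 3 libraries of 24 h (limma, Benjamini-Hochberg adjusted p = 0.0278 against 42 h and 0.00171 against 18 h). It was thus above 0 at 18 and 42 h only, from about 7 and 4 reads, and it had reached 100 FPKM at 18 h only, so a high 18 h level was a condition of its entry. At 42 h its libraries held about 1, 2 and 1 reads. With so few reads, values of 0 at 66 h do not establish a fall, although limma called it. Leaving out 18 h replicate 2, 42 h replicate 1 or 66 h replicate 2 ended the call against 42 h (limma adjusted p = 0.0561, 0.0546 and 0.0512). So did a pseudocount of 10 FPKM (0.0981), a fit to the 66 and 42 h libraries alone (0.439) and the replicate block (0.132).

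Against the exponential phase, limma called 6.04% of the 8693 genes, 2.91% higher and 3.13% lower, and 2 of the 66 loci, An04g06550 higher and An11g01050 lower. Among the 1844 genes at 100 FPKM or more, to which all 66 belong, 404 (21.9%) were called. With an unadjusted p under 0.05 there were 12 loci, 4 higher and 8 lower at 66 h. Both 66 h libraries lay above every 18 h library in 12 loci (18.2%, against 29.7% of the genes at the level) and below every one in 16 (24.2%, against 35.7%). Of the 12, 3 had entered through 66 h only, and of the 16, 5 through 18 h only. The loci were not tested as a group. The comparison shares the 18 h libraries with the rule.

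An04g06550 rose to 1449 ± 5.02 FPKM at 66 h (SD, n = 2), against 674 ± 109 at 18 h (n = 3), which is 1.12 ± 0.22 (SE) on the log2 scale (limma, Benjamini-Hochberg adjusted p = 0.0138). Without 66 h replicate 1 or 2 the log2 difference was 1.12 and 1.11, and the call was lost (limma adjusted p = 0.09 and 0.093). Those fits have 1 library at 66 h, which is assumed to vary like the other groups, and over all genes they call 288 and 314 in place of 525. A fit with no variance trend also lost the call (0.251). An09g05010 averaged 4005 ± 604 FPKM at 66 h, against 2085 ± 317 at 18 h, a difference of 0.95 ± 0.34 (SE) in log2 units that missed the threshold (limma, Benjamini-Hochberg adjusted p = 0.152). It was called without 24 h replicate 1 (adjusted p = 0.00651, limma), which enters the fit only through the spread. An18g00600 averaged 358 ± 80.4 FPKM at 66 h, against 735 ± 133 at 18 h, and its difference of -1.04 ± 0.31 (SE) in log2 units missed it too (limma, Benjamini-Hochberg adjusted p = 0.0836).

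For some other loci at 300 FPKM or more the later levels are given as a description. At 66 h, limma called none of them against 42 or 18 h. The limma adjusted p against 18 h was 0.273 for An16g00910, 0.684 for An17g01835 and 0.638 for An07g04720. An16g00910 had 17, 9 and 7 reads at 18 h, 7, 1 and 1 at 24 h, 20, 24 and 39 at 42 h, and 41 and 43 at 66 h. An17g01835 had 483, 223 and 517 FPKM at 18 h, 225, 54.4 and 55.7 at 24 h, 303, 313 and 564 at 42 h, and 561 and 574 at 66 h. In both, the 66 h libraries exceeded all of 18 h, as in 29.7% of the genes at the level. An07g04720 had 446, 365 and 499 FPKM at 18 h, 181, 0 and 67.5 at 24 h, 197, 336 and 245 at 42 h, and 127 and 134.5 at 66 h. Its later libraries lay below all of 18 h, and those of 66 h below all of 42 h, from about 3 reads each. Of the genes at the level, 35.7% had both 66 h libraries below all of 18 h, and 16.5% below all of 42 h.

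A few of the loci lay close together in the gene order of the reference table. An09g00590 and An09g00600 are direct neighbours. An09g00590 had 17, 17 and 10 reads at 18 h, 3, 0 and 4 at 24 h, 7, 14 and 5 at 42 h, and 30 and 13 at 66 h. An09g00600 had 20, 13 and 17 reads at 18 h, 6, 2 and 2 at 24 h, 8, 15 and 12 at 42 h, and 12 and 15 at 66 h. In both, replicate 2 was the lowest of the 24 h libraries and the highest of the 42 h libraries, while the highest 24 h library was replicate 3 in An09g00590 and replicate 1 in An09g00600.

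The abundant loci An11g10840 and An11g10890 are separated by 4 genes, of which 3 were among those measured. None of the 3 shared their level: An11g10850 and An11g10880 stayed under 45 FPKM in every library, and An11g10870 had 61.9, 49.9 and 69.6 FPKM at 18 h, 0 in all of 24 h and 11.8 to 37.4 afterwards. An01g03090 and An01g03140 are also separated by 4 genes, and the abundant one between them, An01g03130, did not dip, with 881, 553 and 660.5 FPKM at 18 h and 759, 499.95 and 756 at 24 h. In these stretches the genes between the loci had other levels or courses.

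Set against all genes at 100 FPKM or more, a low 24 h mean was about as often followed by a low 42 h mean as not. The 24 h mean was at most 0.5 of the 18 h mean in 196 genes, and the 42 h mean was also at most 0.5 of it in 101 of them and above that in 95, from which the limit on the return left the 66 loci and An04g06940. The mirror image of the rule, a rise to at least 2-fold at 24 h that was undone by 42 h, was met by 49 genes. At 300 FPKM or more the numbers were 18 loci that dipped and 10 genes that peaked, of 809.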

How the data were processed

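The authors deposited FPKM values, 1 per gene and library, for 10445 genes in 11 libraries. RSEM is named in the submitters' processing notes. The aligner, build, annotation and RSEM version stand as not given in the sources used here, and no scaling between libraries is recorded. FPKM is relative to the library's total, so a few abundant transcripts can shift the others. Broth samples were frozen at once and made into Illumina libraries, per the labels' protocols.

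The loci were selected by the stated rule with Python 3.11.15, pandas 2.3.3 and numpy 2.4.6, and figures were drawn with matplotlib 3.10.9. The rule, the lists and the tests were chosen with earlier results of these data known. Reads were recovered where the low values of a gene were whole multiples of 1 step (tolerance 0.06 up to 8 reads), which held for 7624 genes. A tolerance of 0.15 was used for 7 of the 53 loci with reads. Over the 7624 genes a library held 15058 to 21846 reads, which is too high where a step came out as a fraction of 1 read. Libraries listed 5399 to 5959 genes above 0.

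Values at 66 h were compared with those at 42 h and 18 h as log2(FPKM + 1) in limma 3.58.1 (R 4.3.3), with 1 mean per time, all 11 libraries and a variance trend on the mean level. Genes with at least 1 FPKM in at least 2 libraries were tested, and a gene was called at a Benjamini-Hochberg adjusted p under 0.05 over all 8693 genes tested. Fold changes on this scale understate the change of low genes. The RefSeq table of assembly ASM285v2, matched by 10417 genes, gave symbols and gene order, and none of its coordinates are used.

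Named loci are the 8 most abundant, the 6 with the lowest 24 h over 18 h ratio, the 6 with the highest 42 h over 24 h ratio, those called at 66 h, those next to each threshold and neighbours in the gene order. Others named (An17g01835, An16g00910, An07g04720, An02g14170, An08g11170, An07g07700, An02g02760, An16g03660, An12g02150, the loci kept in all omissions, An03g06680 and gpdA) were chosen after their values were seen. The gene lists planned by product text and the planned sequence features were not analysed here, apart from the glycolytic genes with a symbol. The count per locus of the 11 omissions and 5 other settings was added after seeing the data. No batch is given in the labels.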

Additional observations from a re-analysis of the deposited data

How the results depend on the processing

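The number of genes that met the rule stayed between 45 and 88 when 1 or 30 FPKM was added in place of 10, with medians in place of means and under both scalings between libraries. It was 112 with a level of at least 50 FPKM, which keeps all 66 and adds less abundant genes, and 32 with at least 200 FPKM. Without single libraries, or all those of 1 replicate number, it was 60 to 113, and the 2 highest, 109 and 113, left out 24 h replicate 1, alone or with the other replicate 1 libraries. The cause was not tested. Between 66 and 42 h, 1 of the loci was called. The number was 0 with a pseudocount of 10, 0 in a fit to those 5 libraries alone and 0 under the replicate block, and 0 to 1 without single libraries. Between 66 and 18 h, 2 loci were called, 1 with no variance trend, 2 under the replicate block and 1 to 3 without single libraries. Over all genes, limma called 37 between 66 and 42 h and 525 between 66 and 18 h, with ranges of 0 to 90 and 251 to 636 over the alternatives, and 4 and 362 with the replicate block. Libraries with the same replicate number did not deviate together (correlations of -0.07 to 0.05 over 15 pairs), so the numbers are not taken as pairs. With 2 libraries at 66 h and few reads per locus, moderate changes of most loci were not detectable at this depth.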
